A study of Oryza sativa with 9 samples.

Results

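The 13 kDa prolamin genes clustered on chromosome 5 of rice were followed in developing seeds of 3 genotypes, in 9 libraries. The loci were taken by their identifiers from a list of 10, of which 9 were among the 31263 loci of the deposited table, and LOC_Os05g26360 was not analysed here. The genotypes were wild type rice, EM1084, a mutant in which OsTudor-SN has the change E503K, and pHL8042/EM1084, which is EM1084 transformed with wild type OsTSN and is called the complemented line here. The complemented line carries the mutant gene of EM1084 as well, and each of the 2 altered genotypes is represented by 1 line. Each genotype had 3 biological repeats of dehulled seeds, 10 to 14 days after flowering, from chamber-grown plants (27 °C, days of 12 h and nights of 12 h).

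Prolamins are small, alcohol-soluble storage proteins of the cereal endosperm, and in rice they are made on rough endoplasmic reticulum (ER) and are deposited inside its lumen as spherical protein bodies. Prolamin mRNAs are carried to that membrane as ribonucleoprotein particles along the cytoskeleton, and OsTudor-SN is an RNA-binding protein of such particles. The 13 kDa class is the most numerous class of rice prolamins, and its genes lie in tandem groups of near-identical copies, so how reads were divided among copies can affect the value of any one locus.

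Mapped reads, derived from the steps of the RPKM values (read numbers divided by transcript length and by the mapped total), numbered 5778627 to 10551055 in wild type, 12805472 to 15630870 in EM1084 and 17022681 to 18449248 in the complemented line, so depth moved with genotype and its part in the results was not tested. OsTudor-SN itself read 91.1, 97.6 and 88.4 RPKM in wild type, 206, 212 and 221 in EM1084 and 348, 367 and 389 in complemented seeds. Its log2 fold change of 1.20 in EM1084 against wild type stood beside a median of 1.06 over all loci, and under median-of-ratios scaling it was -0.17 and called lower. These levels do not check a single amino acid change, and transcripts of the introduced copy and of the mutant gene cannot be told apart. The 4 endosperm markers summed to 48263 to 53724 RPKM in wild type, 26752 to 28634 in EM1084 and 59624 to 62934 in the complemented line, and all 4 were detected in every library. In EM1084 against wild type, GluA1 (a glutelin, from 34902 to 15413 RPKM on average) and alpha-globulin (13305 to 8251) were lower and carried the sum. AGPS2, a subunit of the starch precursor enzyme, was higher (2363 to 2761), and the starch synthase gene Wx did not pass (1169.8 to 1175.4). All 4 were lower under median-of-ratios scaling, where 26.4% of all loci were lower. Under quantile normalization 3 were higher and 1 lower, beside 28.1% and 27.3% of all loci. The 7 embryo and aleurone markers summed to 1076 to 1164, 1629 to 1926 and 1718 to 2166 RPKM in the same order, with 1 of them (LOC_Os03g51690) at 0 in a wild type library, and the list moved both ways. Of the 6 tested, 4 were higher in EM1084 than in wild type, among them the oleosins Ole18 (66.5 to 986 RPKM on average) and Ole16 (113 to 643), and 2 were lower, LOC_Os05g28210 (500.0 to 87.2) and LOC_Os11g26790 (429 to 56.2). Over all loci, 82.7% were higher and 5.33% lower in that comparison, and the median of the list (1.16) was near the overall 1.06. The 5 green tissue markers never exceeded 6.40 RPKM in sum. All 3 marker sums differed in level between wild type and EM1084, and their part in the results was not tested.

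The cluster as a whole was highest in wild type, lowest in EM1084 and in between in the complemented line. Its summed RPKM was 108848, 115389 and 110031 in the wild type libraries 1 to 3, 31882, 35602 and 28186 in EM1084, and 68223, 50167 and 41971 in complemented seeds. The 3 genotypes did not overlap. As a part of all mapped reads, the cluster took 7.19% ± 0.25 in wild type, 2.03% ± 0.24 in EM1084 and 3.39% ± 0.86 in complemented seeds (SD, n = 3 each). These sums are given without a test, because the loci were chosen with results of these data known. In whole seeds, fewer cells of a type and less of an RNA per cell cannot be told apart.

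The loci spanned 200.394 kb of chromosome 5 in the coordinates of the deposited table, for which no source used here names a genome build. The first 7 lay on the plus strand, starting with LOC_Os05g26350 (15330469 to 15331142) and LOC_Os05g26368 (15333031 to 15333661). LOC_Os05g26377 (15338152 to 15338822) and LOC_Os05g26386 (15338155 to 15338822) occupied nearly the same bases, overlapping by 668 bp. After a gap came LOC_Os05g26440 (15372629 to 15373075), LOC_Os05g26460 (15384835 to 15385500) and LOC_Os05g26480 (15398528 to 15399097). LOC_Os05g26720 (15512513 to 15513163) and LOC_Os05g26770 (15530219 to 15530862) lay more than 100 kb further on, on the minus strand. The transcripts were 447 to 674 bp long as derived from the table. RPKM divides by length, but levels set side by side still rest on how reads of near-identical copies were divided.

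The overlapping pair made up most of the cluster, and its sum was close among the wild type libraries while its division between the 2 identifiers was not. LOC_Os05g26386 read 44935, 45925 and 64131 RPKM in wild type, 19866, 22384 and 17392 in EM1084 and 42722, 30934 and 25571 in complemented seeds. LOC_Os05g26377 read 20401, 23359 and 1694 RPKM in wild type, 38.8, 21.7 and 26.8 in EM1084 and 49.1, 25.4 and 50.9 in complemented seeds. Wild type library 3 stood more than 10-fold below the other wild type libraries for LOC_Os05g26377 and was the highest library for LOC_Os05g26386. Summed, the pair read 65335, 69284 and 65826 RPKM in wild type, 19904, 22405 and 17418 in EM1084 and 42771, 30959.8 and 25622 in complemented seeds. The sums of the wild type libraries differed by a factor of no more than 1.06, and the 3 genotypes did not overlap.

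**Figure D1:**
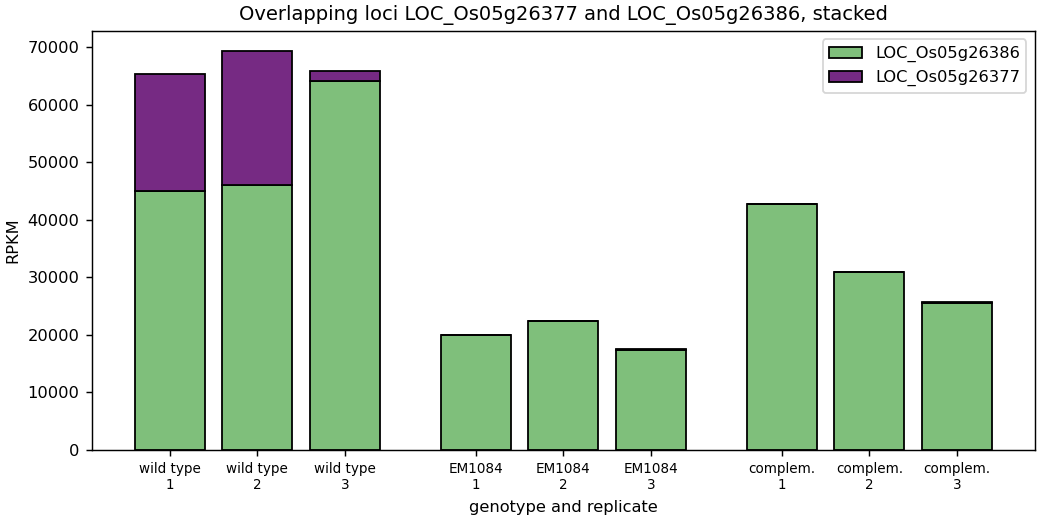
RPKM of the overlapping loci LOC_Os05g26386 (green) and LOC_Os05g26377 (purple), stacked for each of the 9 libraries; there are no error bars because each bar is 1 library. The purple part is 31.2%, 33.7% and 2.57% of the bar in wild type libraries 1 to 3 and under 0.2% in EM1084 and the complemented line.

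The part of the pair listed under LOC_Os05g26377 was 31.2%, 33.7% and 2.57% in wild type libraries 1, 2 and 3. EM1084 libraries had 0.195%, 0.0969% and 0.154%, and complemented libraries 0.115%, 0.0819% and 0.199%. The division between the identifiers thus varied more within wild type than the sum did, so the sum is given beside the single loci. Where the 3 comparisons are described, counts of called loci are given with the identifiers apart and with the pair taken as 1. In limma's test on log2(RPKM + 1), with Benjamini-Hochberg adjustment over all loci tested, the sum fell by 1.75 on the log2 scale in EM1084 against wild type (SE 0.15, adjusted p = 5.4e-07). It was 0.71 higher on the log2 scale in the complemented line than in EM1084 (SE 0.15, limma adjusted p = 0.0021) and 1.04 lower than in wild type (log2 fold change -1.04, SE 0.15, limma adjusted p = 6.8e-05). The size of the fall in EM1084 depended on scaling, from 3.37-fold as deposited to 8.77-fold under median-of-ratios scaling, 5.22-fold with scaling on RPKM outside the storage protein lists and 1.67-fold under quantile normalization, which forces 1 common distribution on all libraries. Taken alone, LOC_Os05g26386 had log2 fold changes of -1.37 in EM1084 against wild type (limma adjusted p = 5.0e-05), 0.71 in complemented seeds against EM1084 (limma adjusted p = 0.0091) and -0.66 against wild type (limma adjusted p = 0.0087). LOC_Os05g26377 had a log2 fold change of -8.31 in EM1084 against wild type (SE 1.03), which became -9.54 without wild type library 3 and -7.65 without wild type library 2.

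LOC_Os05g26460 was lower in EM1084 than in wild type and in between in the complemented line. It read 16408, 17724 and 16875 RPKM in wild type, 2893, 3177 and 2348 in EM1084 and 7996, 5191 and 4144 in complemented seeds. No genotypes overlapped, and the complemented libraries spread 1.93-fold. The log2 fold change was -2.61 in EM1084 against wild type (SE 0.20, limma adjusted p = 3.6e-07), a 6.10-fold lower level as deposited, which was 15.9-fold under median-of-ratios scaling, 9.45-fold with scaling outside the storage lists and 2.72-fold under quantile normalization. In the complemented line it was 1.00 higher than in EM1084 on the log2 scale (limma adjusted p = 0.0016) and remained below wild type (log2 fold change -1.61, limma adjusted p = 2.8e-05).

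LOC_Os05g26350 and LOC_Os05g26368, the neighbours at the start of the cluster, fell in EM1084, and the complemented line overlapped the mutant. LOC_Os05g26350 read 15715, 16531 and 15031 RPKM in wild type, 5216, 5695 and 4916 in EM1084 and 8541, 6144 and 5145 in complemented seeds. LOC_Os05g26368 read 8891, 9374 and 9931 RPKM in wild type, 2306, 2569 and 2139 in EM1084 and 3365, 2718 and 2339 in complemented seeds. For both, every wild type library stood above all others, while library 3 of the complemented line lay within the EM1084 range. The log2 fold changes in EM1084 against wild type were -1.58 (SE 0.14, limma adjusted p = 3.7e-07) and -2.01 (SE 0.11, limma adjusted p = 3.7e-09).

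Against EM1084, the complemented line did not pass the test for LOC_Os05g26350 (log2 fold change 0.30, SE 0.14, limma adjusted p = 0.092) or for LOC_Os05g26368 (0.25, SE 0.11, limma adjusted p = 0.075). Both passed without complemented library 3 (0.46 and 0.38, limma adjusted p = 0.0070 and 0.010), and LOC_Os05g26368 also without EM1084 library 2 (0.32, limma adjusted p = 0.046). Both also passed when libraries were scaled by the median of ratios (0.71 and 0.67) or on RPKM outside the storage protein lists (0.61 and 0.56). Against wild type, the complemented line was lower for both, with log2 fold changes of -1.28 (limma adjusted p = 4.5e-06) and -1.76 (limma adjusted p = 2.9e-08). Under quantile normalization neither locus passed in any of the 3 comparisons.

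The minus-strand loci LOC_Os05g26720 and LOC_Os05g26770 fell in EM1084 and, as deposited, were higher in the complemented line than in either other genotype. LOC_Os05g26720 read 1144, 1168 and 1119 RPKM in wild type, 571, 736 and 493 in EM1084 and 1981, 1608 and 1483 in complemented seeds. LOC_Os05g26770 read 1283, 1251 and 1195 RPKM in wild type, 783, 835 and 682 in EM1084 and 2921, 2868 and 2549 in complemented seeds. The 3 genotypes did not overlap for either locus, and the order of wild type and complemented line was the opposite of that in the abundant loci.

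In EM1084 against wild type the log2 fold change was -0.95 for LOC_Os05g26720 (SE 0.13, limma adjusted p = 1.6e-05) and -0.70 for LOC_Os05g26770 (SE 0.09, limma adjusted p = 4.6e-06). These falls of 1.93-fold and 1.63-fold were 5.02-fold and 4.23-fold under median-of-ratios scaling, and 2.99-fold and 2.52-fold with scaling outside the storage lists. Under quantile normalization they were 1.65-fold and 1.33-fold. In the complemented line against EM1084 the levels were 2.83-fold (limma adjusted p = 1.0e-06) and 3.63-fold higher (limma adjusted p = 2.8e-09). Their rise above wild type depended on scaling. For LOC_Os05g26770 it was 1.16 as deposited (limma adjusted p = 9.4e-08), 0.84 with scaling outside the storage lists and 0.19, not passing, under median-of-ratios scaling (limma adjusted p = 0.11). For LOC_Os05g26720 it was 0.55 as deposited (limma adjusted p = 0.0019), 0.23, not passing, outside the storage lists (limma adjusted p = 0.17) and -0.41, reversed, under median-of-ratios scaling (limma adjusted p = 0.040). Under quantile normalization both were called higher than wild type, LOC_Os05g26770 by 1.49 and LOC_Os05g26720 by 0.81 (limma adjusted p = 4.0e-08 and 0.0012).

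Compared with wild type, LOC_Os05g26440 was higher in EM1084 and the complemented line, as were most loci, while its neighbours LOC_Os05g26386 and LOC_Os05g26460 were lower. It read 64.9, 54.4 and 48.0 RPKM in wild type, 202, 185 and 182 in EM1084 and 637, 669 and 683 in complemented seeds. The genotypes were far apart, with no overlap and with a spread of 1.07-fold among the complemented libraries. These values rest on 124 to 306 reads in wild type, 1154 to 1270 in EM1084 and 5141 to 5519 in the complemented line. The log2 fold change was 1.76 in EM1084 against wild type (SE 0.10, limma adjusted p = 4.4e-09), 1.80 in the complemented line against EM1084 (limma adjusted p = 1.6e-08) and 3.56 against wild type (limma adjusted p = 2.5e-11). It was higher in all 3 comparisons under median-of-ratios scaling too, by 0.39 (limma adjusted p = 0.0026), 2.21 and 2.61. The medians over all loci under that scaling were 0.10, -0.011 and 0.10.

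LOC_Os05g26480 was barely detected. It read 6.15, 3.39 and 5.81 RPKM in wild type, 5.77, 0 and 6.87 in EM1084 and 10.4, 8.73 and 6.18 in complemented seeds, from at most 84 reads. EM1084 library 2 had 0 reads, which allows up to 0.44 RPKM (3 reads, counting error only), while both other EM1084 libraries lay within or above the wild type range. The locus passed in no comparison of the values as deposited (limma adjusted p = 0.42 in EM1084 against wild type; for complemented seeds 0.18 against EM1084 and 0.46 against wild type). Under median-of-ratios scaling and quantile normalization it was called lower in EM1084 than in wild type (log2 fold changes -1.67 and -1.68, limma adjusted p = 0.021 and 0.032). Without EM1084 library 2 the first log2 fold change turned from -0.67 to 0.29 (limma adjusted p = 0.26), and the complemented line passed above wild type (0.63, limma adjusted p = 0.014).

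**Figure D2:**
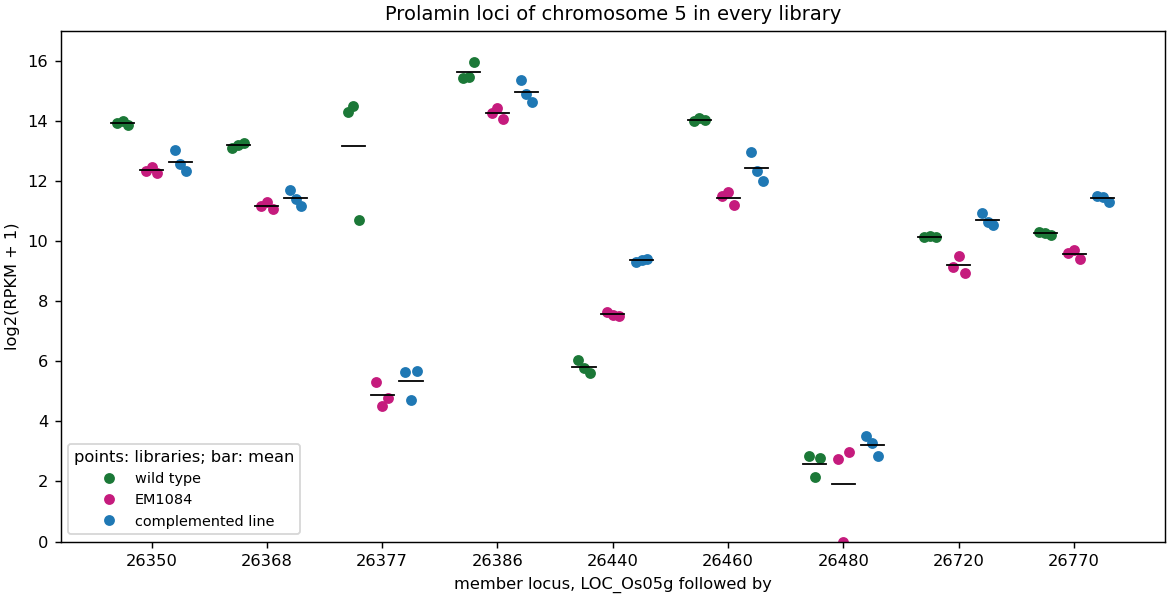
Level of each of the 9 loci as log2(RPKM + 1), 3 points per genotype for the 3 libraries and a bar at their mean (wild type green, EM1084 magenta, complemented line blue). LOC_Os05g26440 rises from wild type to the complemented line, wild type library 3 falls away from the others at LOC_Os05g26377, and EM1084 library 2 is at 0 for LOC_Os05g26480.

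The order of the loci by level was in part shared by the genotypes. The merged pair came first in each. In wild type LOC_Os05g26460 and LOC_Os05g26350 followed with overlapping ranges, and LOC_Os05g26460 was the higher of them inside each library. In EM1084 LOC_Os05g26350 stood clear above LOC_Os05g26460. The range of LOC_Os05g26460 there overlapped that of LOC_Os05g26368, though LOC_Os05g26460 was the higher inside each library. In the complemented line the ranges of LOC_Os05g26350 and LOC_Os05g26460 overlapped, but LOC_Os05g26350 was the higher inside each library, the reverse of wild type. LOC_Os05g26770 reached the range of LOC_Os05g26368 there. LOC_Os05g26440 stood below LOC_Os05g26720 in all 9 libraries.

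Compared with wild type, EM1084 was lower for 7 of the 9 loci, higher for LOC_Os05g26440 and not called for LOC_Os05g26480. Of the 15450 loci tested, 5.33% were lower and 82.7% higher in that comparison, and the median log2 fold change was 1.06 over all loci against -1.37 over the 9. With the pair taken as 1, 6 of 8 were lower and 1 higher, with a median of -1.26. Relative to that overall median, LOC_Os05g26440 stood 0.69 higher and LOC_Os05g26460 stood at -3.67. Under median-of-ratios scaling, which brought the overall median to 0.10, 8 loci were lower and 1 higher, with 26.4% of all loci lower and 32.6% higher. Under quantile normalization 6 were lower, against 27.3% of all loci, and 1 higher, against 28.1%. With the pair taken as 1, 7 of 8 were lower under median-of-ratios scaling and 5 after quantile normalization, each with 1 higher. LOC_Os05g26480, not called as deposited, was among the lower loci under both. LOC_Os05g26350 and LOC_Os05g26368 were not called after quantile normalization. The libraries of the 2 genotypes did not overlap for 8 of the 9 loci and for 87.5% of all loci.

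Compared with EM1084, the complemented line was higher for 5 of the 9 loci and lower for none, and LOC_Os05g26350, LOC_Os05g26368, LOC_Os05g26377 and LOC_Os05g26480 were not called. Over all loci, 10.2% were higher and 45.3% lower, with a median log2 fold change of -0.34 against 1.00 over the 9. With the pair taken as 1, 5 of 8 were higher, with a median of 1.15. Under median-of-ratios scaling 7 were higher and none lower, against 18.1% and 18.9% of all loci. Under quantile normalization 4 were higher and none lower, against 20.6% and 20.5%. With the pair taken as 1, 7 of 8 were higher under median-of-ratios scaling and 4 after quantile normalization, with none lower. The libraries did not overlap for 5 of the 9 loci and for 65.6% of all loci.

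Compared with wild type, the complemented line was lower for 5 loci (LOC_Os05g26350, LOC_Os05g26368, LOC_Os05g26377, LOC_Os05g26386 and LOC_Os05g26460), higher for 3 (LOC_Os05g26440, LOC_Os05g26720 and LOC_Os05g26770) and not called for LOC_Os05g26480. Over all loci, 7.37% were lower and 72.0% higher, and the median log2 fold change was 0.73 against -0.66 over the 9. With the pair taken as 1, 4 of 8 were lower and 3 higher, with a median of -0.25. Under median-of-ratios scaling 6 were lower and 1 higher, against 25.0% and 29.8% of all loci. Under quantile normalization 3 were lower and 3 higher, against 25.4% and 26.3%. With the pair taken as 1, 5 of 8 were lower and 1 higher under median-of-ratios scaling. After quantile normalization 2 were then lower and 3 higher. The libraries did not overlap for any of the 9 loci, nor for 78.7% of all loci. The comparisons share libraries with each other, so their values stand side by side and are not independent. In the joint limma test of any genotype difference, 8 of the 9 passed, against 93.0% of all loci.

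**Figure D3:**
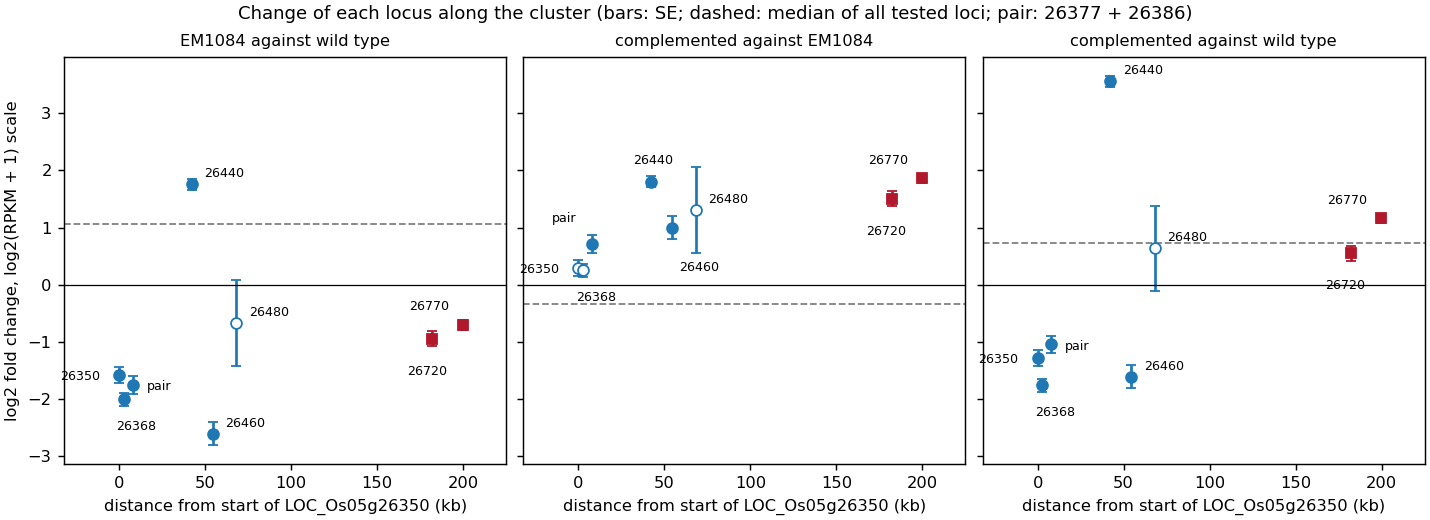
Log2 fold change of each locus, on the log2(RPKM + 1) scale, against its distance in kb from the start of LOC_Os05g26350, for the 3 comparisons; the overlapping loci are merged, bars are SE, blue circles are plus-strand and red squares minus-strand loci, and open symbols did not pass. The dashed line is the median of all tested loci, at 1.06, -0.34 and 0.73, and LOC_Os05g26440 is the only locus plotted above it in all 3 panels.

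Ratios between loci of 1 library do not change when each library is scaled by 1 factor, but quantile normalization can change them. Under it LOC_Os05g26770 and LOC_Os05g26720 fell more in EM1084 against wild type than LOC_Os05g26350 (log2 fold changes -0.41, -0.72 and -0.10). In the values as deposited, the ratios of LOC_Os05g26440, LOC_Os05g26460, LOC_Os05g26720, LOC_Os05g26770 and the merged pair were at separate levels in the 3 genotypes. Relative to LOC_Os05g26350, LOC_Os05g26460 stood at 1.08 ± 0.040 in wild type, 0.530 ± 0.045 in EM1084 and 0.862 ± 0.067 in complemented seeds (SD, n = 3 each). LOC_Os05g26770 stood at 0.0789 ± 0.0030, 0.145 ± 0.0059 and 0.435 ± 0.082 in the same order, and LOC_Os05g26720 at 0.0726 ± 0.0019, 0.113 ± 0.015 and 0.261 ± 0.028. For these 3 loci no genotypes overlapped in the ratio. LOC_Os05g26440 had a ratio of 0.00354 ± 0.00051 in wild type, 0.0361 ± 0.0032 in EM1084 and 0.105 ± 0.029 in complemented seeds, again with no overlap. LOC_Os05g26350 itself changed by -1.58 and -1.28 (log2) in EM1084 and the complemented line against wild type. The medians over all loci there were 1.06 and 0.73. A ratio to LOC_Os05g26350 thus rose for any locus that followed these medians. The share of all loci without overlap in this ratio was not counted.

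The merged pair stood at ratios to LOC_Os05g26350 of 4.24 ± 0.12 in wild type, 3.76 ± 0.20 in EM1084 and 5.01 ± 0.030 in complemented seeds, with no overlap between genotypes. Its part of the summed cluster RPKM was 60.0% ± 0.12, 62.4% ± 0.57 and 61.8% ± 0.83. LOC_Os05g26368 had a ratio of 0.598 ± 0.054 in wild type, 0.443 ± 0.0080 in EM1084 and 0.430 ± 0.032 in complemented seeds, and the ranges of the last 2 overlapped. The ratios are given as descriptions, with no test.

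**Figure D4:**
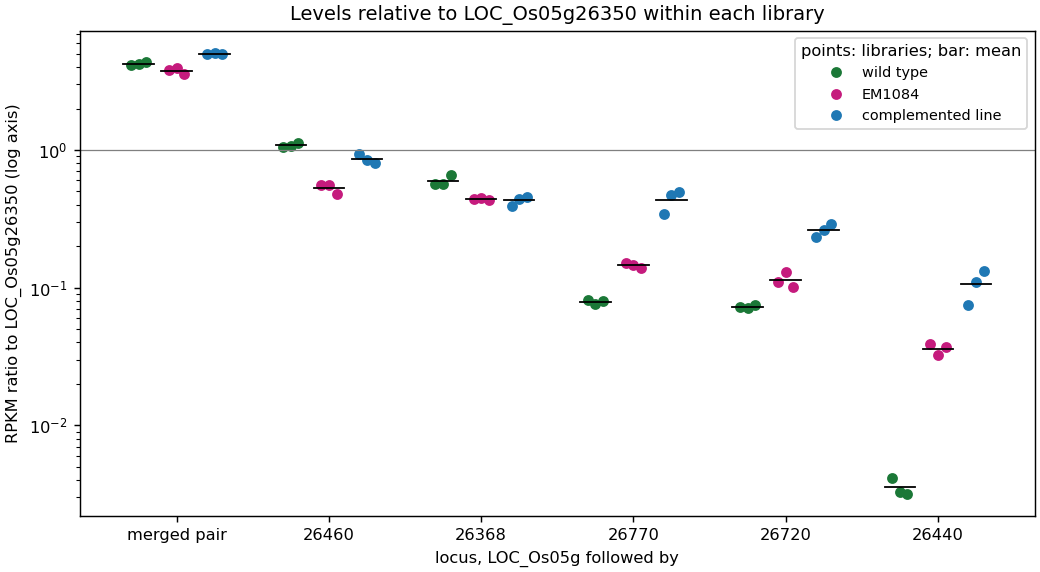
RPKM of 5 loci and of the merged pair divided by the RPKM of LOC_Os05g26350 in the same library, on a log axis; points are libraries and bars means (wild type green, EM1084 magenta, complemented line blue). LOC_Os05g26770, LOC_Os05g26720 and LOC_Os05g26440 step upward from wild type to the complemented line, while LOC_Os05g26460 drops from 1.08 to 0.530 in EM1084. The divisor LOC_Os05g26350 is itself lower in EM1084 and the complemented line than in wild type.

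Within the complemented line, library 1 was the highest for 7 of the 9 loci. Its log2 deviation from the genotype mean was 0.52 for LOC_Os05g26460, 0.40 for LOC_Os05g26350 and 0.40 for the merged pair, and library 3 stood at -0.42, -0.33 and -0.34. LOC_Os05g26770 and LOC_Os05g26440 varied less, with the highest complemented library 1.15-fold and 1.07-fold above the lowest. Within EM1084, library 2 was the highest for 6 of the 9. Of the 14 other prolamin loci in the table, EM1084 library 2 was the highest EM1084 library for 8. Among the complemented libraries, library 1 was the highest for 3 of the 14 and library 3 for 7.

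**Figure D5:**
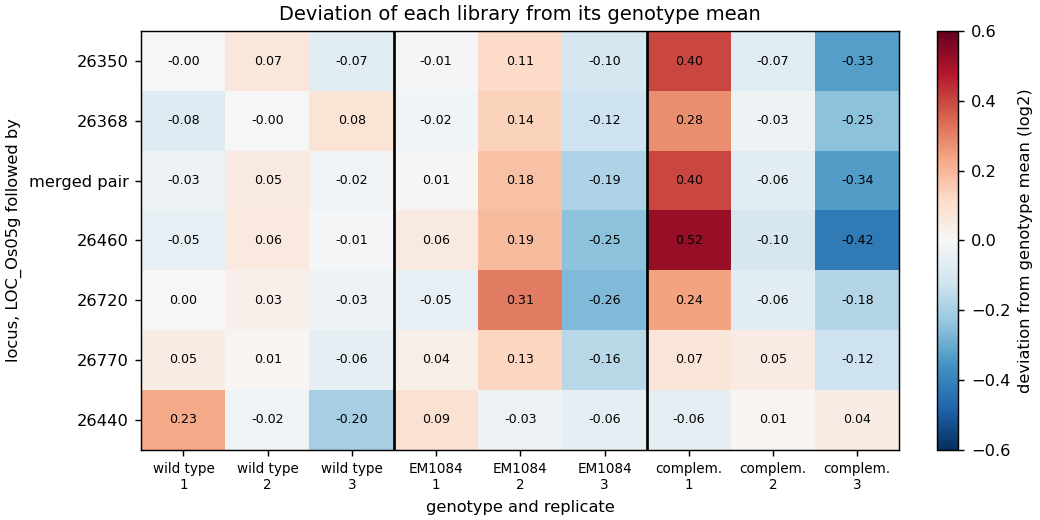
Log2 deviation of each library from the mean of its genotype, for 6 loci and the merged pair (rows) in the 9 libraries (columns; complem. is the complemented line), red above and blue below the mean. Complemented library 1 is red and library 3 blue in every row except LOC_Os05g26440.

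Within the same stretch of chromosome, 15 other loci were listed. Of these, 12 stayed below 10 RPKM in every library. LOC_Os05g26750, which is on the list of other prolamins and lies on the minus strand between LOC_Os05g26720 and LOC_Os05g26770, read 708 ± 33 RPKM in wild type, 426 ± 63 in EM1084 and 776 ± 108 in complemented seeds (log2 fold change -0.74 in EM1084 against wild type, limma adjusted p = 4.1e-05). LOC_Os05g26620, named after its values were seen and with no annotation at hand, read 1549.5 ± 89.7 RPKM in wild type, 107 ± 5.6 in EM1084 and 1049 ± 169 in complemented seeds. Its log2 fold change was -3.84 in EM1084 against wild type and 3.27 in the complemented line against EM1084 (limma adjusted p = 8.8e-12 and 1.8e-10). LOC_Os05g26490, chosen in the same way, read 336 ± 28 RPKM, 18.8 ± 3.7 and 67.1 ± 17.6 in the same order.

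The other prolamin loci were mostly lower in EM1084 than in wild type. Of 14 in the table, 10 were lower and 4 higher in EM1084 than in wild type (median log2 fold change -0.91 against 1.06 over all loci), beside 5.33% of all loci lower and 82.7% higher. Under median-of-ratios scaling 12 were lower and 1 higher, beside 26.4% and 32.6% of all loci. In the complemented line 9 were higher and 5 lower than in EM1084, beside 10.2% and 45.3%, and 10 lower and 2 higher than in wild type, beside 7.37% and 72.0%. The most abundant was LOC_Os07g11920, a chromosome 7 prolamin, at 33187 ± 581 RPKM in wild type, 10367 ± 1384 in EM1084 and 14863 ± 1735 in complemented seeds. LOC_Os07g10580 stood at 28948, 6520 and 15290 RPKM on average (to the nearest whole RPKM), and LOC_Os07g11910 at 25229, 10093 and 6903.

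Of 5 genes for protein folding in the ER, 4 were higher in EM1084 than in wild type, a share close to the 82.7% of all loci. The chaperone BiP1 was lower as deposited (log2 fold change -0.19, limma adjusted p = 0.049), beside a median of 1.06 over all loci. It reversed under quantile normalization (0.18, limma adjusted p = 0.048), where all 5 were higher, beside 28.1% of all loci. BiP1 read 1866 ± 106 RPKM in wild type, 1637 ± 111 in EM1084 and 313 ± 28 in complemented seeds. In the complemented line all 5 were lower than in EM1084, beside 45.3% of all loci. The disulfide isomerase PDIL1-1 read 487 ± 23 RPKM in wild type, 2052 ± 164 in EM1084 and 561 ± 43 in complemented seeds. PDIL2-3, an isomerase of prolamin bodies, had a log2 fold change of 2.08 in EM1084 against wild type, the oxidase ERO1 2.12 and calnexin (CNX) 1.30. Under median-of-ratios scaling the calnexin value was -0.07 and did not pass. There 3 of the 5 were higher and 1, BiP1, was lower, beside 32.6% and 26.4% of all loci.

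Of the 4 transcription factors that activate storage protein genes, RISBZ1, NAC20 and NAC26 were higher in EM1084 than in wild type as deposited (log2 fold changes 0.87, 0.52 and 0.43). These values lie below the median of 1.06 over all loci, of which 82.7% were higher. Under median-of-ratios scaling all 4 factors were lower, beside 26.4% of all loci. After quantile normalization 1 was lower and 3 were not called, beside 27.3% of all loci lower. RPBF did not pass as deposited (-0.10, limma adjusted p = 0.34). In the complemented line against EM1084, 3 of the 4 factors were higher and none lower in the unscaled values. Over all loci, 10.2% were higher and 45.3% lower there. All 4 were higher with the median of ratios, beside 18.1% of all loci, and after quantile normalization, beside 20.6%. The log2 fold change of NAC20 was 1.54 in the unscaled values and 1.95 with the median of ratios.

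Among the tested loci of all lists, the 5 whose log2 level followed the summed cluster most closely over the 9 libraries were LOC_Os07g11920 (prolamin, Pearson r = 0.984), LOC_Os02g16830 (glutelin, 0.983), LOC_Os07g11410 and LOC_Os07g11380 (albumins, 0.970 and 0.968) and LOC_Os11g26790 (embryo and aleurone list, 0.955). These values describe 9 libraries that fall into 3 genotypes and share their depth and scaling. Of 15441 other tested loci, 46 had r above 0.95.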

How the data were processed

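Per the labels' protocols, total RNA of dehulled seeds was made into ScriptSeq v2 libraries. The authors deposited 1 table of RPKM per locus and library; for aligner, counter, genome build and annotation the sources used here give no name. All 281367 RPKM values came out as whole reads within 0.001 read, from which mapped totals and lengths were derived, a method tested on simulated data. 1 read in 1 kb was worth 0.054 to 0.173 RPKM, and intervals and limits from reads cover counting error only.

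Loci with at least 1 RPKM in at least 3 libraries (15450, all 9 members among them) were fitted as log2(RPKM + 1) with limma 3.58.1 in R 4.3.3 (trend and robust empirical Bayes, all 9 libraries, two-sided, Benjamini-Hochberg over all loci, called below 0.05). Fold changes on this scale understate changes of low loci. P-values measure the spread between the deposited repeats. ± is the SD over 3 libraries. Alternatives covered scaling, pseudocount, filter, samples in the fit, replicate block, limma-voom on the derived reads and leaving out each library. A fit of all loci relative to LOC_Os05g26350 was also run and dropped, because the spread of that 1 locus enters every ratio and the moderated p-values were too small; only the ratios are given.

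Members and lists were chosen with earlier results of these data known. All members are named. Of the other lists, the rule names OsTudor-SN, the 3 most abundant other prolamins, the folding genes, the activators and the 5 loci most alike. Names come from general knowledge of rice, since the table holds identifiers only. Glutelins and globulins with albumins served for scaling; in EM1084 against wild type, 2 of 12 glutelins were higher and 8 lower in the unscaled values, all 12 lower with the median of ratios, and 8 higher and 2 lower after quantile normalization. Of 8 tested globulins and albumins, 3 were higher and 5 lower in the unscaled values, 1 and 6 with the median of ratios, and 4 and 4 after quantile normalization. The shares of all loci were 82.7% higher and 5.33% lower, 32.6% and 26.4%, and 28.1% and 27.3%, in the same order.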

Additional observations from a re-analysis of the deposited data

How the results depend on the processing

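Of the 3 comparisons, the number of loci called in each kept within 1.5 times its value under every alternative run, including limma-voom, and leaving out 1 library gave 8 to 8, 5 to 7 and 8 to 9 for EM1084 against wild type, the complemented line against EM1084 and the complemented line against wild type, with 8 to 9 in the joint test. The merged pair ranged from -1.84 to -1.66, 0.51 to 0.88 and -1.25 to -0.88 (log2) without 1 library and, by scaling, from -3.13 (median of ratios) to -0.74 (quantile) in the first comparison and from -2.01 to -0.62 in the third, and lost its call in the complemented line against EM1084 under quantile normalization (0.12, limma adjusted p = 0.39; the cause was not tested). The summed level, scaled after the data were seen, was -1.80, 0.75 and -1.06 unscaled, -3.18, 1.18 and -2.01 with median-of-ratios scaling and -2.44 outside the storage lists for EM1084 against wild type; without 1 library it ranged from -1.89 to -1.72, 0.53 to 0.89 and -1.27 to -0.91. Reversals were LOC_Os05g26720 in the complemented line against wild type under median-of-ratios scaling (-0.41), LOC_Os05g26480 there under median-of-ratios scaling (-0.20) and quantile normalization (-0.18), and LOC_Os05g26480 in EM1084 against wild type without EM1084 replicate 2 (0.29, within a range from -1.20 to 0.29 over the libraries left out); the cause was not tested. Same-numbered libraries did not deviate together (correlations from -0.026 to 0.060). With 3 libraries per genotype, this cannot show whether the numbers mark a shared batch. With the replicate block 8, 5 and 8 loci were called and the merged pair stood at -1.75, 0.71 and -1.04. LOC_Os05g26480 had 84 reads or fewer in every library, 0 in EM1084 library 2.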
